A study of Homo sapiens with 4 samples.

Results

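The histone genes of a human melanoma single-cell data set were taken as the rows of its gene table whose symbol starts with HIST1H, HIST2H, HIST3H, HIST4H, H1F, H2AF or H3F. The rule found 71 of 19238 genes. Of these, 59 are replication-dependent histone genes, 11 are variant histone genes, and 1, H1FX-AS1, is an antisense gene that the prefix catches and that was kept out of the sums (217 UMIs in all). The rule used symbols and no measured value.

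The study profiled 4 cultured lines, 1 library each, with droplet-based 3′ RNA sequencing. They were 113/6-4L, a subclone of WM239A labelled as having a high potential of lung metastasis, the subclones 131/4-5B1 and 131/4-5B2, both labelled as having a high potential of brain metastasis, and WM239A itself, labelled as poorly metastatic. No treatment is labelled, and what all 4 share is their descent from WM239A, a line grown from a human melanoma. Each cell name in the deposited table carries a barcode and a suffix from 1 to 4, and nothing in the sources used here ties a suffix to a line. The 4 suffixes are called sets 1 to 4 below, each is a single unlabelled sample without replicate, and no line is compared with another.

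Histones are the proteins around which DNA is wound. Replication-dependent histone genes sit in clusters, are transcribed mainly while DNA is copied, and are unusual in that most of their mRNAs end in a short stem-loop in place of a poly(A) tail. The variants (H2A.Z, H2A.X, H3.3, macroH2A and others) come from genes outside these clusters. Most of their mRNAs have ordinary poly(A) tails and are made through much of the cell cycle. H2A.X differs in that the annotated transcript of its gene, H2AFX, holds the stem-loop. The library kit primes on poly(A), so the levels below are those of captured RNA, and for a gene with a low level, scarce RNA and RNA without a tail cannot be told apart.

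The stem-loop sequences are shown first because this end is what the mRNAs of the class are known for. In the GENCODE release 29 transcripts (GRCh38), the consensus of the histone stem-loop, 16 bases searched on the transcript strand, occurred in 25 of the 59 replication-dependent members, in 1 of the 11 variants and in 80 of all 57133 genes (0.14%). Of the 59 replication-dependent members, 29 had at least 30 bases annotated after the stop codon, and all 25 matches were among these, so that the models without a match are mostly models that end at or near the stop codon. In the lines below the 16 matching bases are in capitals, with 6 bases on each side. HIST1H2AC lies at chr6:26124663-26124690 (plus strand), HIST1H2BD at chr6:26158581-26158608 (plus strand), HIST2H2BE at chr1:149886182-149886209 (minus strand), HIST1H2BN at chr6:27839084-27839111 (plus strand) and H2AFX at chr11:119094892-119094919 (minus strand).
HIST1H2AC: cccaaaGGCTCTTTTCAGAGCCccccta
HIST1H2BD: cccaaaGGCTCTTTTAAGAGCCacgcat
HIST2H2BE: tccaaaGGCTCTTTTCAGAGCCacccac
HIST1H2BN: cccaaaGGCTCTTTTCAGAGCCactcag
H2AFX: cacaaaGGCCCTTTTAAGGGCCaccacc

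The annotated transcript that holds the stem-loop ran on past it by 1128 bases in HIST1H2AC, 1729 bases in HIST2H2BE, 377 bases in HIST1H2BN and 39 bases in HIST1H2BD. Over all annotated transcripts of the gene, the longest stretch after the stop codon was 3575 bases in HIST1H2BN and 384 bases in HIST1H2BD. Of the 25 replication-dependent members with a match, 18 had more than 100 bases after it. H2AFX, the variant that marks DNA breaks once phosphorylated, was the only variant with a match, and its transcript ran on for 1044 bases. In HIST1H4C the annotated transcript ended 51 bases after the stop codon and did not hold this consensus, which says nothing about the factor that binds the loop.

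Promoters were shown for members whose levels moved in opposite directions while sharing DNA, and for linker histones that moved differently. RefSeq windows of 250 bases before the transcript start (GRCh38.p14) were matched for 59 of the 70 coding members, 50 replication-dependent and 9 variant. HIST1H4C, HIST1H4A, HIST1H2AH, HIST1H2BC, HIST1H2BF, HIST1H2BG, HIST1H2BI, HIST1H3I, HIST1H3J, H1F0 and H3F3C were the others. Both strands were searched for TATAAA (the TATA box), CCAAT (a box bound by NF-Y), ATTTGCAT (the octamer bound by OCT1) and AAACACA (an element known from linker histone promoters). In the 67 histone windows, matches of different motifs did not overlap.

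HIST2H2AC (H2A) and HIST2H2BE (H2B) point away from each other and share 235 bases of promoter at chr1:149886683-149886917, printed on the plus strand, which is the strand of HIST2H2AC. HIST1H1D (chr6:26234988-26235237, minus strand) and HIST1H1C (chr6:26056471-26056720, minus strand) are linker histone genes, and H2AFX (chr11:119095466-119095715, minus strand) is the variant with the stem-loop. Capitals mark the motif matches, on either strand.
HIST2H2AC and HIST2H2BE shared window: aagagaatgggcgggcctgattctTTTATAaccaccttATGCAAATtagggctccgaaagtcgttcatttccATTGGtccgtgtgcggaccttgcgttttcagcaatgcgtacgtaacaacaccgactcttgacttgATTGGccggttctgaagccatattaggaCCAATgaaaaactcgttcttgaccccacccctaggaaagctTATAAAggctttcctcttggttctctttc
HIST1H1D: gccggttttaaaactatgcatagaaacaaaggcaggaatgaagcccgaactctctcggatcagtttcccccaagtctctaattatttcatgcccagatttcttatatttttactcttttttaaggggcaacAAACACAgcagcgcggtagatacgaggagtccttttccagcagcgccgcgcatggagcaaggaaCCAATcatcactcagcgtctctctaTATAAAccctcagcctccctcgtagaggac
HIST1H1C: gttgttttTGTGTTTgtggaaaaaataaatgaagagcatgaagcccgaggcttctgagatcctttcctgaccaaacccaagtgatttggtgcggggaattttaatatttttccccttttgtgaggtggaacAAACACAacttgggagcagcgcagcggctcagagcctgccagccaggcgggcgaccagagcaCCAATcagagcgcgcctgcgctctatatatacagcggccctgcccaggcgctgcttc
H2AFX: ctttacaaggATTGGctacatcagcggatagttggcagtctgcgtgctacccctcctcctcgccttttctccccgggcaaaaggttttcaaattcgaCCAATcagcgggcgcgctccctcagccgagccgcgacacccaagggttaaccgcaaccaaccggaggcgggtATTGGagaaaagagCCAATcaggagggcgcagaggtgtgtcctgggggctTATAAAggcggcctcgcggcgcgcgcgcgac

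AAACACA was found in 5 of 5 replication-dependent H1 windows and in 4.82% of all 35116 RefSeq windows, and HIST1H1B and HIST1H1C each held it more than once. The octamer was found in 10 of 14 H2A windows and 9 of 14 H2B windows of the replication-dependent class, against 1.63% of all windows. CCAAT was in all 14 H2A, all 14 H2B, all 11 H3 and all 5 H1 windows but in 2 of 10 H4 windows, against 11240 of all 35116 windows. TATAAA was in 10 of 14 H2A, 10 of 14 H2B, 7 of 11 H3, 6 of 10 H4 and 3 of 5 H1 windows, against 10.7% of all windows. H2A and H2B genes that point away from each other share much of their windows, so the same match can count in both families. Some genes, such as HIST1H2BD, have 2 windows, so these are not counts of separate promoters. These are matches of letters, and no binding was measured.

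The sets held 2121, 1779, 2140 and 2133 cells with totals of 71617986, 71915542, 71444474 and 71182648 UMIs, and 39 barcodes occurred in more than 1 set. Median UMIs per cell were 33556, 41131, 33153 and 33390. A UMI marks 1 captured molecule, so a gene's count does not grow with its length and levels of different genes were set side by side without a length correction. Levels are counts per 1000000 UMIs (CPM) of a set's summed cells. Of the 6 melanocytic markers, 5 reached 10 CPM in a set, with summed levels of 4963 to 8428 CPM. Of the markers of other cell types, 1 of 3 fibroblast genes in the table (LUM, 0.182 to 12.7 CPM), 1 of 3 immune genes (CD68) and none of the single endothelial and erythroid genes in the table reached 10 CPM. The immune marker PTPRC had at most 0.042 CPM.

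Together the 70 coding histone genes gave 0.853%, 0.879%, 0.877% and 0.979% of all UMIs in sets 1 to 4. Replication-dependent genes gave 13.8% of the histone UMIs. Their sum was 1154, 1203, 1218 and 1371 CPM in sets 1 to 4, against 7372, 7590, 7555 and 8421 CPM for the variants. The captured histone RNA was therefore mostly RNA of the variants in each set, and both sums were highest in set 4.

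**Figure D1:**
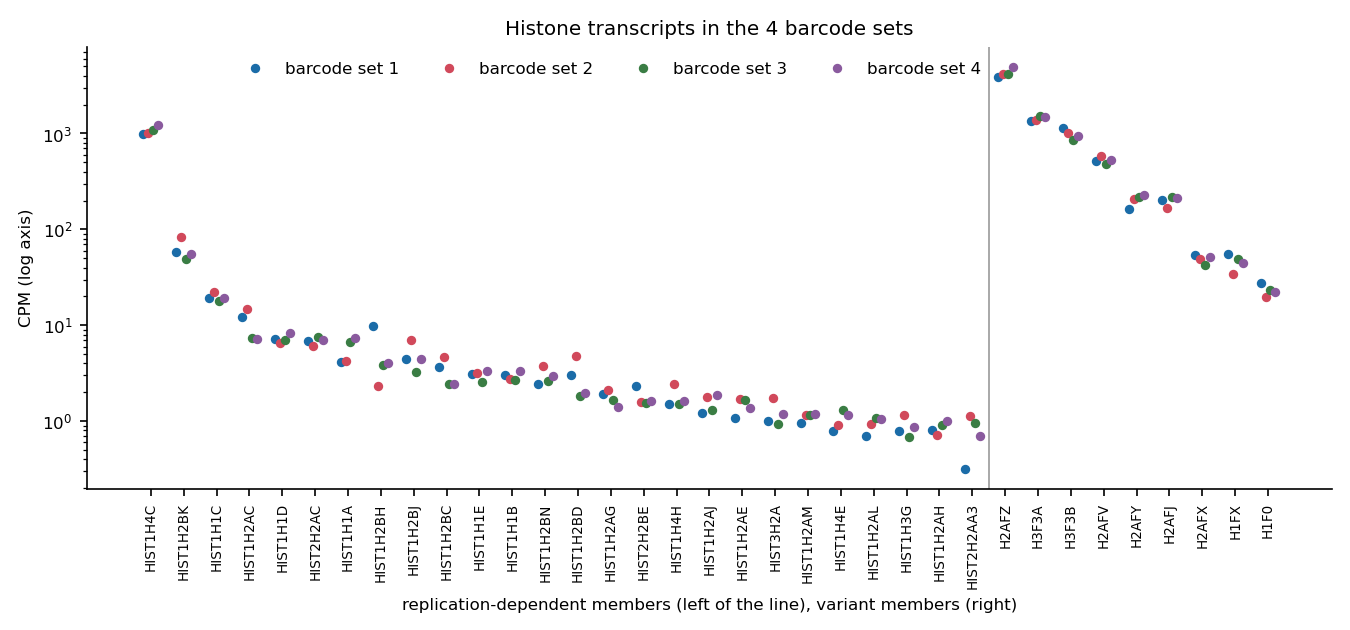
Level of each replication-dependent member (left of the line) and each variant member (right) with at least 1 CPM in a set, in CPM on a log axis, with 1 point for each barcode set. HIST1H4C stands near 1000 CPM while the other replication-dependent members stay at or under 83.0 CPM, and 9 variants lie between 19.6 and 4923 CPM.

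Among replication-dependent genes, HIST1H4C, which encodes the core histone H4, carried 87.1% of the class's UMIs. It had 996 CPM in set 1 (95% counting interval 988 to 1003), 1011 in set 2 (1004 to 1019), 1081 in set 3 (1074 to 1089) and 1221 in set 4 (1213 to 1229). The intervals are exact Poisson intervals and cover counting error only. All 12 H4 genes summed to 1000.1, 1016, 1086 and 1225 CPM, so HIST1H4C made up nearly all captured H4 RNA. The other families were far lower, at 65.8 to 109 CPM for 16 H2B genes, 36.8 to 41.8 CPM for 5 H1 genes, 25.0 to 33.2 CPM for 15 H2A genes and 3.98 to 4.88 CPM for 11 H3 genes.

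Besides HIST1H4C, 3 replication-dependent members reached 10 CPM in at least 1 set. HIST1H2BK (H2B) had 58.0, 83.0, 48.7 and 54.8 CPM in sets 1 to 4, HIST1H1C (the linker histone H1.2) had 19.3, 22.4, 18.0 and 19.5 CPM, and HIST1H2AC (H2A) had 12.1, 14.9, 7.43 and 7.22 CPM. All 3 were highest in set 2. A further 22 members lay between 1 and 10 CPM in their highest set and 33 stayed under 1 CPM in each set. Of these 55, HIST1H1D (H1.3), HIST2H2AC and HIST1H1A (H1.1) had most UMIs, with 6.55 to 8.23, 6.15 to 7.47 and 4.12 to 7.38 CPM. At the low end, 28 of the 59 had fewer than 100 UMIs over all 8173 cells, and HIST1H2AD had 5. Genes of these clusters code for near-identical proteins from similar sequences, and no source used here says how reads that fit several copies were counted, so the split between copies is uncertain.

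Among the variants, H2AFZ (H2A.Z) carried 55.1% of the class's UMIs, with 3861, 4141, 4130 and 4923 CPM in sets 1 to 4. H3F3A and H3F3B, both of which encode H3.3, followed with 1354, 1375, 1527 and 1485 CPM and with 1143, 1019, 862 and 931 CPM, so that set 1 was lowest in H3F3A and highest in H3F3B. H2AFV (H2A.Z.2) had 511, 579, 486 and 525 CPM. H2AFY (macroH2A1) had 163, 207, 217 and 228 CPM and H2AFJ (H2A.J) had 202, 165, 217 and 211 CPM. H2AFX had 53.5, 49.6, 42.5 and 51.7 CPM. The linker variants H1FX (H1.X) and H1F0 (H1.0) had 55.0, 33.9, 49.5 and 45.0 CPM and 27.9, 19.6, 23.2 and 22.2 CPM, and set 2 was lowest in both. H3F3C stayed at 0.266 to 0.501 CPM. H2AFY2 (macroH2A2) had no UMI in set 1, which allows up to 3 counts there, and 0.250, 0.966 and 0.716 CPM in the other 3 sets. H3F3A and H2AFZ have many processed pseudogenes and H1FX has an antisense neighbour, and no source used here says whether counting used strand.

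To compare shares of cells at 1 depth, each cell was thinned to 10000 UMIs, which left out 6, 1, 1 and 1 cells. HIST1H4C was then seen in 93.9%, 93.3%, 90.6% and 93.6% of cells (at the deposited depth 99.1%, 99.4%, 98.6% and 99.4%). Any other replication-dependent member was seen in 72.2%, 79.8%, 68.4% and 72.5% of thinned cells, and any variant in 100% of them. No cell type that lacks histones is present, so the share that free RNA alone would give was not measured.

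On the log2(CPM + 1) scale, of the 13 members with at least 10 CPM in a set, 0 had a highest set 2-fold above their lowest, while 5.85% of the 7421 genes compared did (434 genes), and 13 members are too few to set a count of 0 against that share. The widest of the 13 was HIST1H2AC, at 1.94-fold on that scale. In CPM itself its ratio was 2.07, with 14.9 CPM in set 2 and 7.22 CPM in set 4. With 1 sample per set no test was possible, and the fold rule only describes size. Without the minimum of 10 CPM, 2 of the 71 members, HIST1H2BH and HIST1H2BD, were 2-fold apart, while 5.26% of all 19238 genes were. The H2B gene HIST1H2BH stood at 9.79 CPM in set 1 and at 2.34, 3.88 and 4.06 CPM in sets 2, 3 and 4. It was highest in set 1 within each phase of the cell cycle, with 9.45 against 2.31 to 3.89 CPM in G1 cells. HIST1H2BD, another H2B gene, stood at 3.06, 4.76, 1.85 and 1.97 CPM.

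Cell cycle phases were called per cell from published lists of S and G2M genes, 40 and 54 of which are in the table and none of which is a histone member. The control genes of the scores were taken from outside the members, so no member was used as a scored or control gene. The phase lists do hold SLBP, NASP and CENPA, which are in the list of histone supply and chaperone genes followed below. CENPA is itself an H3 variant, which the symbol rule does not catch. G1, S and G2M cells numbered 799, 817 and 499 in set 1, 498, 794 and 486 in set 2, 620, 1017 and 502 in set 3 and 422, 1090 and 620 in set 4. The share of G1 cells was thus highest in set 1 (37.8%) and lowest in set 4 (19.8%), the set with the highest histone sums. Median UMIs per cell were 30485 to 38131 in G1, 33988 to 42051 in S and 35312 to 43803 in G2M cells. The part of this depth difference in the results by phase was not tested, and CPM relates each gene to the summed UMIs of its own phase.

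The sum of replication-dependent histone RNA was several times higher in S and G2M cells than in G1 cells. The class summed to 1478, 1338, 1356 and 1448 CPM in S cells of sets 1 to 4, against 427, 443, 362 and 369 CPM in G1 cells, a ratio of 3.02 to 3.93. In G2M cells it summed to 1629, 1681, 1856 and 1806 CPM, 3.80 to 5.13 times the level in G1 cells. The variants summed to 7166, 7638, 7492 and 8163 CPM in S cells, against 5899, 5756, 5745 and 6251 CPM in G1 cells, a ratio of 1.21 to 1.33. Without H2AFZ the ratio of the variant sum was smaller, at 1.04, 1.11, 1.06 and 1.08 in sets 1 to 4. The G1 and S values of both classes did not overlap between the phases in any pairing of sets. The share of all genes without such overlap is not given, here or below, so a lack of overlap only describes the values. Without HIST1H4C the replication-dependent sum was 151, 181, 125 and 142 CPM in S cells against 155, 212, 145 and 151 CPM in G1 cells. The higher class sum in S cells thus rested on HIST1H4C, and the other members together were lower in S than in G1 cells in each set.

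HIST1H4C itself had 272, 231, 216 and 217 CPM in G1 cells, 1327, 1157, 1231 and 1306 CPM in S cells and 1452, 1491, 1707 and 1643 CPM in G2M cells of sets 1 to 4. Every S and G2M value lay above every G1 value. The S over G1 ratio was 4.88 in set 1 (95% counting interval 4.75 to 5.01), 5.00 in set 2 (4.85 to 5.16), 5.69 in set 3 (5.51 to 5.88) and 6.01 in set 4 (5.78 to 6.25), and the G2M over G1 ratio was 5.34 to 7.90.

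A member was said to pass the size rule if it was at least 1.5-fold higher, or lower, in each of the 4 sets on the log2(CPM + 1) scale. Of 7782 genes with at least 10 CPM in 1 set and phase, 3.89% were higher in S than in G1 cells by this rule and 0.18% lower, and for G2M over G1 cells the shares were 4.65% and 0.771%. The median log2 ratio of these genes was 0.03 for both comparisons. Only 8 of the 59 replication-dependent members reached the minimum. Higher in S cells were 4, HIST1H4C, HIST1H1D, HIST1H1A and HIST2H2AC, and lower was 1, HIST1H2AC, and the same members were higher and lower in G2M cells. HIST1H1D, HIST1H1A and HIST2H2AC reached 10 CPM only in G2M cells, so their passing is no evidence about the class. HIST1H1C, HIST1H2BK and HIST1H2BH did not pass in either direction.

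**Figure D2:**
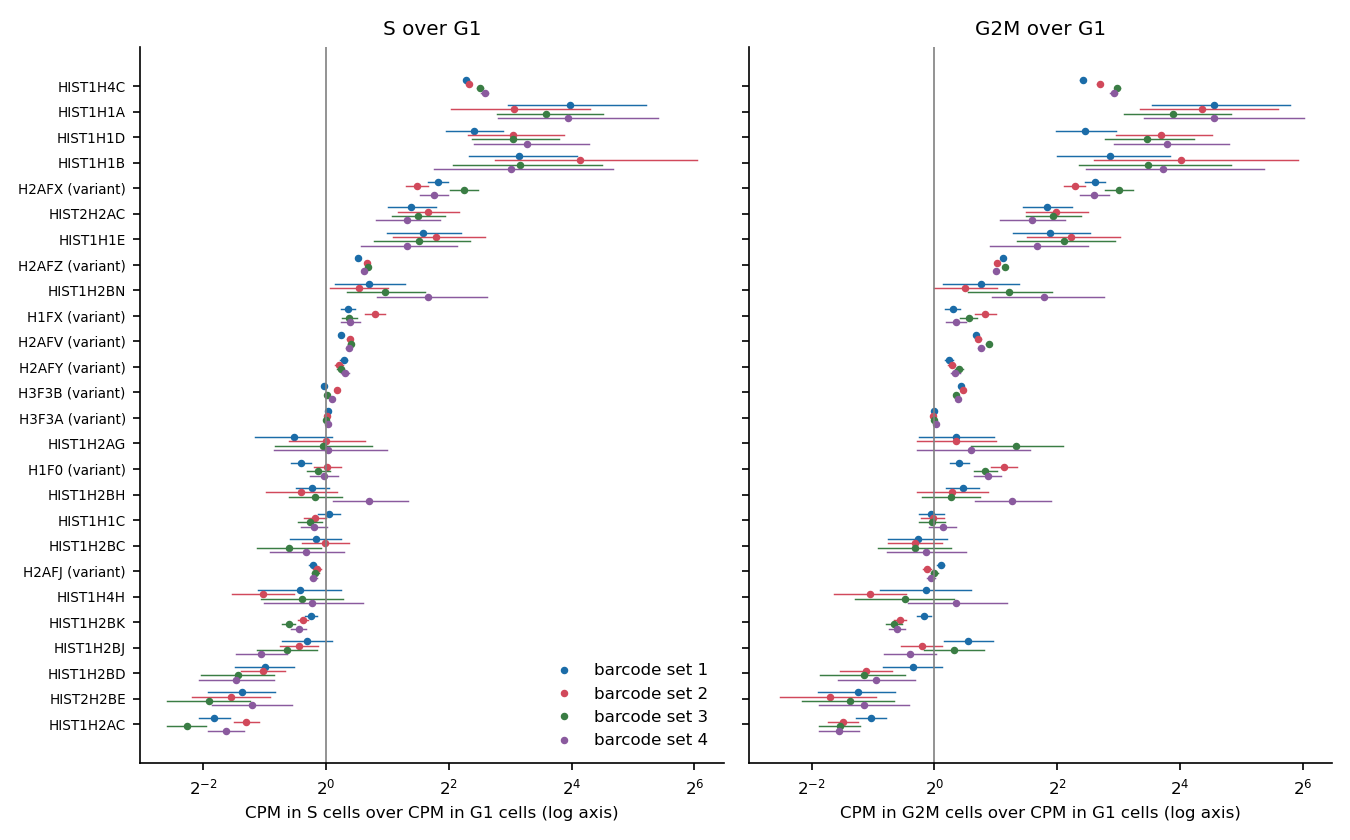
Ratio of CPM in S cells to G1 cells (left) and in G2M cells to G1 cells (right) for the coding members with at least 500 UMIs, on a log axis, with 1 point per barcode set and its exact 95% counting interval. HIST1H4C and 4 linker H1 genes lie right of 1 in every set, while HIST1H2AC, HIST2H2BE and HIST1H2BK lie left of it.

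Among the linker histones, HIST1H1D had 9.93, 7.03, 8.26 and 8.42 CPM in S cells against 1.87, 0.851, 0.998 and 0.875 CPM in G1 cells of sets 1 to 4. HIST1H1A had 5.14, 3.55, 8.17 and 7.36 CPM in S cells against 0.326, 0.426, 0.683 and 0.478 CPM in G1 cells. The S and G1 values of both genes did not overlap. HIST1H1B (H1.5) and HIST1H1E (H1.4), which stayed under the minimum, had S over G1 ratios of 8.10 to 17.7 and of 2.48 to 3.48, with counting intervals above 1 in all 4 sets. HIST1H1C had ratios on both sides of 1, at 19.9, 21.0, 16.4 and 17.6 CPM in S cells against 19.1, 23.8, 19.7 and 20.1 CPM in G1 cells. Its promoter, printed above, held the same AAACACA and CCAAT letters as that of HIST1H1D and had no TATAAA match.

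Of the replication-dependent members, 6 are known to give polyadenylated transcripts outside S phase, namely HIST1H1C, HIST1H2AC, HIST1H2BC, HIST1H2BD, HIST1H2BK and HIST2H2BE. This list of 6 was chosen from general knowledge with earlier results of these data known. It summed to 86.9, 122, 67.0 and 81.0 CPM in S cells against 116, 170, 111 and 118 CPM in G1 cells, ratios of 0.602 to 0.750. The other 53 replication-dependent members summed to 1391, 1216, 1289 and 1367 CPM in S cells against 311, 273, 250 and 250 CPM in G1 cells, ratios of 4.46 to 5.46. Leaving out HIST1H4C too, the remaining 52 summed to 58.3 to 63.9 CPM in S cells against 32.9 to 41.6 CPM in G1 cells. The sum of the 6 was lower in S cells in each set, and the sum of the others was higher with and without HIST1H4C. These sums do not stand for each member. Of the 53, 8 had a counting interval of the S over G1 ratio above 1 in all 4 sets. For 1, HIST3H2A, it lay below 1 in all 4, and 44 did neither. Among the 19144 genes outside the phase lists, 8.34% lay above 1 and 3.14% below.

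HIST1H2AC fell to 5.93, 11.1, 3.41 and 5.20 CPM in S cells, against 20.9, 27.3, 16.4 and 16.1 CPM in G1 cells of sets 1 to 4. The S over G1 ratios were 0.208 to 0.408. Its transcript is the one that runs 1128 bases past the stem-loop shown above, and a link between such an end and the level was not tested. HIST1H2BK had 54.0, 79.7, 43.1 and 53.3 CPM in S cells against 63.8, 103, 65.7 and 72.6 CPM in G1 cells, a smaller difference whose counting intervals lay below 1 in each set. HIST1H2BD and HIST2H2BE had S over G1 ratios of 0.364 to 0.503 and 0.268 to 0.432. HIST1H2BC, with 0.659 to 0.992, had intervals that did not lie below 1 in every set.

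Counting every replication-dependent member by the interval of its S over G1 ratio, 8 lay above 1 in all 4 sets, against 8.34% of the 19144 genes outside the phase lists. These were HIST1H4C, HIST1H1A, HIST1H1B, HIST1H1D, HIST1H1E, HIST2H2AC, HIST1H2AJ and HIST1H2BN. A further 5 lay below 1 in all 4 sets, HIST1H2AC, HIST1H2BD, HIST1H2BK, HIST2H2BE and HIST3H2A, against 3.14% of these genes, and 46 did neither. The interval narrows with a gene's UMIs, so these shares depend on the level of the genes counted. Most of those 46 have few UMIs, and a difference was often not detectable at this depth.

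HIST2H2AC and HIST2H2BE, the pair that shares the 235 bases of promoter, lay on opposite sides. HIST2H2AC had 7.89, 6.87, 8.14 and 7.33 CPM in S cells against 3.01, 2.18, 2.89 and 2.94 CPM in G1 cells. HIST2H2BE had 1.48, 1.08, 0.846 and 1.31 CPM in S cells against 3.83, 3.14, 3.15 and 3.02 CPM in G1 cells. The S and G1 values of each did not overlap, in opposite directions, in all 4 sets. This pair was singled out after its values were seen. Pairs were sought only among genes with a matched promoter window, so a pair that holds a gene without a window, such as HIST1H2BC, was missed. Of the 6 other pairs found in this way, HIST1H2AJ (2.59 to 16.8) and HIST1H2BM (0.555 to 0.847, with 29 UMIs in all and a ratio in 2 sets) also lay on opposite sides. HIST1H2AG and HIST1H2BJ lay at 0.694 to 1.02 and 0.482 to 0.807, and HIST1H2BN and HIST1H2AK both lay above 1. HIST1H2AI (0.463 to 2.54) and HIST1H2BL (0.339 to 2.09), and HIST1H2BO (0.698 to 1.69) and HIST1H2AM (1.04 to 1.67), were not on opposite sides in all sets. HIST3H2A lay at 0.365 to 0.516, and its partner HIST3H2BB had 59 UMIs in all.

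Among the variants, 9 of 11 reached the minimum, 1 was higher in S cells by the size rule and 3 were higher in G2M cells, and none was lower. Of the 7782 genes compared, 3.89% were higher in S cells and 4.65% in G2M cells, and 0.18% and 0.771% were lower. The 9 variants are too few to set these counts against those shares. H2AFX was the one higher in S cells, with 57.1, 47.4, 44.01 and 45.8 CPM against 16.1, 17.0, 9.30 and 13.5 CPM in G1 cells of sets 1 to 4, a ratio of 2.79 to 4.73. In G2M cells it had 98.5, 82.6, 74.5 and 82.2 CPM. Its values were ordered G1, S, G2M in every set without overlap. H2AFZ had 2634, 2661, 2577 and 3097 CPM in G1 cells, 3766, 4216, 4143 and 4750 CPM in S cells and 5684, 5367, 5736 and 6211 CPM in G2M cells. It passed for G2M, at 2.01 to 2.23, and missed the rule for S in set 1, where the ratio was 1.43 (1.53 to 1.61 in the other sets). H2AFV passed for G2M as well, at 1.60 to 1.85.

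H3.3 came from genes with unlike profiles. H3F3A had S over G1 ratios of 1.002 to 1.02 and G2M over G1 ratios of 0.990 to 1.01, closer to 1 than any other of the 9 variants compared. H3F3B had 1432, 1202, 1023 and 1073 CPM in G2M cells against 1057, 873, 801 and 820 CPM in G1 cells, ratios of 1.28 to 1.38, and 0.980 to 1.13 for S over G1. H1F0, a linker histone known from differentiated and resting cells, had 37.6, 31.8, 35.7 and 32.4 CPM in G2M cells against 28.4, 14.5, 20.1 and 17.7 CPM in G1 cells, and its ratio in set 1 (1.32) was under the fold of the rule. H1FX lay at 1.28 to 1.74 and H2AFY at 1.16 to 1.24 for S over G1, while H2AFJ lay at 0.861 to 0.902.

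To place the levels more finely than by 3 phases, the cells of each set were ordered by the angle of their S and G2M scores and split into 8 sectors of equal cell number. Sector 1 holds G1 cells and sector 8 holds G2M cells in each set. Genes outside the score lists followed this order. E2F1, a driver of S phase entry, was highest in sector 5, 5, 5 and 4 of sets 1 to 4. Other S phase genes were highest in sectors 4 to 6, CCNE1 in sector 5, 4, 5 and 5, MCM3 in 6, 5, 5 and 5 and MCM7 in 6, 6, 6 and 5. CCNA2, CCNB1 and PLK1, which act in G2 and mitosis, were highest in sector 8 in all 4 sets.

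**Figure D3:**
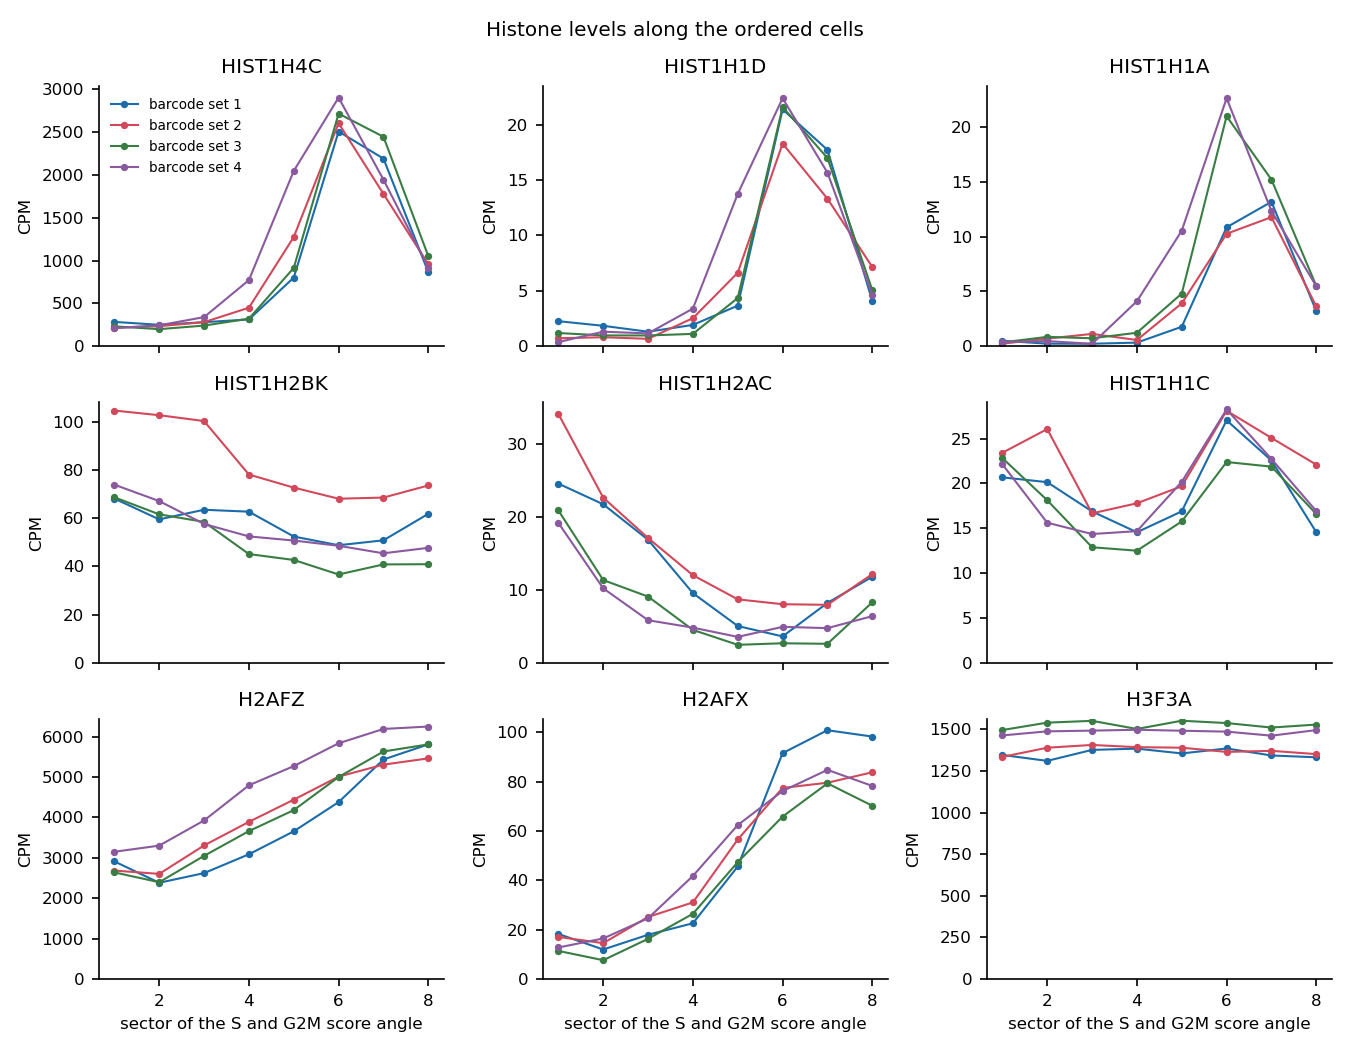
CPM of 9 histone members in 8 sectors of cells ordered by the angle of their S and G2M scores, with 1 line for each barcode set. HIST1H4C, HIST1H1D and HIST1H1A are highest in sector 6 or 7 and lower in sector 8, HIST1H2BK and HIST1H2AC are highest in sector 1, H2AFZ is highest in sector 8 and H3F3A is level.

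The replication-dependent sum was highest in sector 6 in each set, at 2695, 2822, 2893 and 3109 CPM. In sector 8 it was 1032, 1136, 1181 and 1057 CPM. HIST1H4C in sectors 1 to 8 of set 1 had 285, 251, 282, 314, 802, 2505, 2190 and 865 CPM, and in set 4 it had 211, 246, 341, 772, 2046, 2901, 1944 and 919 CPM. Its highest sector lay 9.97 to 13.8 times above its lowest. The high level therefore spanned the later S and earlier G2M cells of this order and was lower again among the last G2M cells in every set. MCM7 was highest in sector 6 too in sets 1 to 3, so the order does not place the high level within S phase. HIST1H1D followed with 21.4, 18.3, 21.6 and 22.4 CPM in sector 6 and 4.08, 7.15, 5.06 and 4.64 CPM in sector 8. HIST1H1A was highest in sector 7 of sets 1 and 2 and in sector 6 of sets 3 and 4.

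The variants did not show this drop as a class. Their sum was highest in sector 8 in each set, at 9885, 9309, 9726 and 10107 CPM, and H2AFZ went with it, at 5806, 5459, 5806 and 6247 CPM in sector 8 and 4377, 5008, 4999 and 5833 CPM in sector 6. Without H2AFZ the sum was highest in sector 8 too, at 1.23 to 1.29 times its lowest sector, against 1.60 to 1.78 times with H2AFZ. H2AFX was highest in sector 7 or 8. H1F0 was lowest in sectors 3 to 5 (11.4 to 15.3 CPM) and highest in sectors 7 or 8 (32.3 to 42.0 CPM). HIST1H2AC was highest in sector 1 in each set, at 24.6, 34.2, 20.9 and 19.2 CPM, and lowest in sectors 5 to 7, at 2.46 to 7.95 CPM. HIST1H1C had 27.0, 28.1, 22.4 and 28.3 CPM in sector 6, where HIST1H4C was highest, and 20.7, 23.4, 22.8 and 22.1 CPM in sector 1. Sector 6 was its highest in sets 1, 2 and 4 and sector 1 in set 3, its lowest was sector 3 or 4, and the highest lay 1.69 to 1.97 times above the lowest.

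Across the 32 points of 8 sectors in 4 sets, with each set centred, HIST1H4C correlated with HIST1H1D at r = 0.98, with HIST1H1A at 0.976 and with HIST2H2AC at 0.974, and with HIST1H2BK at -0.883. H2AFZ correlated with H2AFX at 0.985. The points share libraries, depth and the score order, so these values only describe likeness. Of 2473 genes with at least 50 CPM that are neither members nor in the phase lists, those most like the replication-dependent sum included KRR1 (r = 0.945), TK1, NUDT5, UBE2V2, SPC25, PSMD14, DNAJA1, MAGOHB and RNPS1 (0.924). TK1, the thymidine kinase of DNA synthesis, had a median log2 S over G1 of 0.95, against 0.37 in KRR1.

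HIST1H4C was uneven among cells called S or G2M. In cells thinned to 10000 UMIs, S cells had a median of 6, 4, 4 and 5 HIST1H4C UMIs in sets 1 to 4 and a 90th percentile of 32.4, 31, 32 and 35, against a median of 2 and a 90th percentile of 5, 4, 5 and 4 in G1 cells. The variance over the mean was 13.4 to 15.96 in S cells and 1.23 to 1.72 in G1 cells. At least 20 UMIs were found in 27.3%, 22.9%, 25.8% and 26.8% of S cells, against 0%, 0%, 0.161% and 0% of G1 cells, where a count of 0 in the smallest group of 422 cells has an upper exact limit of 0.870%. In G2M cells the share was 28.7%, 31.7%, 38.6% and 35.5%. H3F3A, by contrast, had a variance over the mean of 1.26 to 1.38 in S cells and 1.38 to 1.76 in G1 cells.

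**Figure D4:**
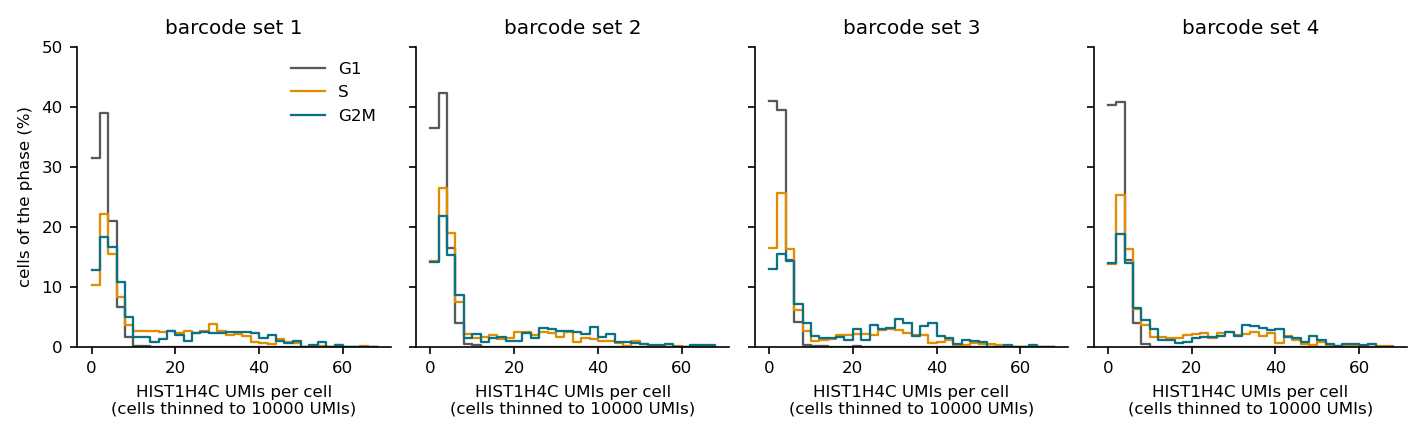
Percent of G1, S and G2M cells by HIST1H4C UMIs per cell, in bins of 2 UMIs, after thinning each cell to 10000 UMIs, with 1 panel per barcode set. G1 cells end near 12 UMIs except for single cells, while S and G2M cells have a main group at low counts and a broad second range from 20 to 50 UMIs.

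Within phases, the order of the sets held for some members and not for others. HIST1H2BK was highest in set 2 in each phase, at 103 CPM in G1, 79.7 CPM in S and 70.03 CPM in G2M cells, and the ratio of the highest to the lowest set was 1.61 to 1.85. H1FX in G1 cells had 47.0, 21.8, 39.1 and 36.1 CPM, and the ratio of set 1 to set 2 was 2.15, while the ratio of its highest to its lowest set was 1.59 in S and 1.49 in G2M cells. HIST1H2AC was highest in set 2 in G1 and S cells and in set 1 in G2M cells. H2AFZ was highest in set 4 in each phase, at 3097 CPM in G1, 4750 CPM in S and 6211 CPM in G2M cells. HIST1H4C in G1 cells was highest in set 1 and in G2M cells highest in set 3, so its order over all cells did not hold within phases. Whether such differences exceed the spread between libraries of 1 line was not tested, since each line has 1 library.

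Genes that make, process or carry histones, together with the H3 variant CENPA, were followed in a list of 52, 50 of which are in the table. Of these, 43 reached the minimum, 7 of them are in the phase lists, and 36 were left to compare. Higher in S cells by the size rule were 7, ASF1B, CHAF1A, DNAJC9, MMS22L, ERI1, HAT1 and YEATS4, and none was lower, against 3.89% higher among all genes compared. Higher in G2M cells were 5, and none was lower, against 4.65% higher. ERI1 reached 10 CPM in S cells of set 1 alone (10.1 CPM), and ASF1B (5.31 to 6.39 CPM) and MMS22L (6.11 to 8.46 CPM) stayed under 10 CPM in G1 cells. They passed the minimum through the phases where they are high, so these counts are no evidence about the list. The median log2 ratio was 0.15 for S and 0.24 for G2M, against 0.03 over all genes compared. These medians are over the same 36 genes, so they are no evidence about the list either.

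The 6 genes of the list with the widest S over G1 difference were ASF1B, HJURP, CHAF1A, CHAF1B, CENPA and MCM2. ASF1B, a chaperone that hands H3 and H4 to the assembly factor CAF-1, had a log2 S over G1 of 2.77, 2.42, 2.82 and 2.599 in sets 1 to 4. CHAF1A, the large subunit of CAF-1, had 2.31, 2.18, 2.09 and 1.87. HJURP, CHAF1B, CENPA and MCM2 are in the phase lists, so their ratios follow from the calls. SLBP, the protein that binds the histone stem-loop, is in the S list too and had 69.1, 64.3, 63.0 and 69.6 CPM over all cells of sets 1 to 4.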

How the data were processed

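Cells of 4 lines, 1 library each, were profiled with the 10x Chromium 3′ kit, version 2, per the labels' protocols. The submitters' processing notes name Cell Ranger 3.0.0, Seurat 3.0 and the builds hg19 and mm10; their roles, the annotation, read strand and cell filters are not given in the sources used here. The authors deposited raw UMI counts for 19238 genes in 8173 cells and a natural log table, which was not used. Cells in the table had 3001 to 6999 genes and at most 19.9% mitochondrial UMIs. No doublet caller was run.

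Counts were summed over cells per barcode suffix, and per phase or sector, and divided by the summed total (CPM). Depth was 71182648 to 71915542 UMIs per set. Intervals are exact at 95% (Poisson, conditional binomial, Clopper-Pearson) and cover counting error only. No test was run, since a set is 1 sample and its cells do not replicate it. Phases were called with scanpy 1.11.5 on cells thinned to 10000 UMIs. Size rules, on log2(CPM + 1), were 2-fold between sets and 1.5-fold in each of 4 sets between phases, for genes with at least 10 CPM. The rules were checked on simulated counts. The members, gene lists and rules were chosen with earlier results of these data known. Members with at least 10 CPM in a set are named with values; of the others, the 3 with most UMIs, and any further named member was chosen after its values were seen. Of the supply and chaperone genes, the 6 with the widest mean S over G1 difference are named. Of the 10 genes most like the replication-dependent sum, 1 is not reported here. The alternatives covered scaling, pseudocount, minimum level, thinning, phase calling and cell filters. Sequences are from GENCODE 29 (GRCh38) and RefSeq (GRCh38.p14); coordinates in those builds were not joined to the counts, which were matched by symbol.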

Additional observations from a re-analysis of the deposited data

How the results depend on the processing

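Of the summary values recomputed under other settings, 66 stayed within the limits set and 11 moved; of single-gene values, 201 stayed and 7 moved. The sign turned for G2M over G1 of HIST1H1C (median log2 -0.03, but 0.03 with phases called at the deposited depth and 0.07 with phase lists without supply and chaperone genes) and of H3F3A (-0.01, but 0.01 without cells near a phase border), neither of which passed the size rule. With a pseudocount of 10 CPM, 3 members in place of 5 were higher in S than in G1 cells, and of the supply and chaperone genes 4 in place of 7 were higher in S cells and 3 in place of 5 in G2M cells. For the count of members 2-fold apart over the sets, 0 as reported, leaving out the minimum gave 2, against 5.26% of 19238 genes, and G1 cells alone gave 1 (H1FX), against 6.91% of 7348 genes. The ratio of set 4 to set 1 was 1.19 for the replication-dependent sum, 1.25 with TMM factors and 1.22 with totals without mitochondrial and ribosomal protein genes; for the variant sum it was 1.14, 1.21 and 1.17. The second scaling raised the log2 level of all genes by 0.46, 0.49, 0.51 and 0.49 in sets 1 to 4. At the deposited depth, the median share of cells with a replication-dependent UMI other than HIST1H4C was 95.0% in place of 72.3%, and for HIST1H4C 99.2% in place of 93.4%. The filters left out 412 cells with most UMIs, 86 cells over 15% mitochondrial UMIs and 2485 cells near a phase border. No paired analysis was possible because the sets carry no replicate numbers and lines have 1 library each. Depth limits the 33 replication-dependent members under 1 CPM.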
